A study of Homo sapiens with 24 samples.

Results

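The genes described here encode the phagocyte NADPH oxidase and its close partners: CYBB, CYBA, CYBC1, NCF1, NCF4, RAC2 and PRAM1. They were taken as a list of oxidase and adaptor genes, matched by symbol to the Ensembl identifiers of the count table, and they make up 7 of the 60655 genes in it. All 7 were found and all 7 passed the filter on low counts in every fit. Other oxidase genes are not analysed here unless named below. Messenger RNA was counted in 24 libraries of 2 human leukaemia lines labelled wild type: NB4, from acute promyelocytic leukaemia (APL), and HL-60, labelled promyeloblast, a myeloid leukaemia line outside APL. Each line was left untreated or was given all-trans retinoic acid (ATRA, 1 µM), arsenic trioxide (ATO, 0.8 µM) or the combination for 48 h, with 3 libraries in each of 8 groups. Doses within the combination and the culture time of untreated cells are not stated in the labels. Each line is 1 established line, and the 3 libraries of a group, numbered as batches 1 to 3, may or may not come from separate cultures, which the labels leave unsaid. The p-values therefore cover the spread among these libraries and nothing wider.

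The phagocyte oxidase is a membrane flavocytochrome that passes electrons from NADPH to oxygen and makes superoxide, the first product of the respiratory burst with which neutrophils and macrophages kill microbes. Its membrane core is a pair of gp91phox (CYBB) and p22phox (CYBA), whose maturation needs the chaperone Eros (CYBC1). On stimulation, cytosolic subunits that include p47phox (NCF1) and p40phox (NCF4) join the core together with the GTPase Rac2 (RAC2). PRAM1 is an adaptor protein of myeloid cells that was first described as a gene repressed by the PML-RARA fusion protein of APL and induced by retinoic acid, and it acts in signalling to the burst. Loss of the core or of the cytosolic subunits causes chronic granulomatous disease, and gain of the burst is a long-used sign that myeloid leukaemia cells have matured.

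Library totals ran from 37811652 to 57795273 counts. The 24 pairs of libraries within groups differed by more than sampling noise, with a chi-square of 4.77 to 39.3 per degree of freedom, so no library was counted as a repeat of another. Mitochondrial genes took 2.93% to 6.66% of counts. The labelled lineage was checked on marker lists. Of 10 granulocyte-lineage markers the summed level was 9141 to 9825 CPM (counts scaled to library size) in untreated NB4 and 3759 to 4233 CPM in untreated HL-60, and after the combination it was 2570 to 3214 and 375 to 449 CPM, while the late neutrophil marker FCGR3B was at 0 counts in untreated cells of both lines. Most of that sum was MPO, the gene of the primary-granule enzyme myeloperoxidase, at 8768 ± 349 CPM in untreated NB4 and 1962 ± 282 CPM there with the combination (SD, n = 3). Of the 8 markers tested in NB4, 6 rose and 2 fell with ATRA and 5 rose and 3 fell with the combination, and in HL-60 3 rose and 5 fell with ATRA and 2 rose and 6 fell with the combination. Of all genes tested in NB4, 31.3% rose and 28.6% fell with ATRA, and 35.4% and 32.8% with the combination. In HL-60 these shares were 25.2% and 23.3%, and 30.7% and 29.7%. CSF3R, the receptor of granulocyte colony-stimulating factor, was singled out from the granulocyte-lineage list. It was at 40.6 ± 2.26 CPM in untreated NB4 and 355 ± 52.5 CPM with ATRA. With ATRA the sum of that list in NB4 was below its untreated level, at 6304 to 6991 CPM. Of 8 monocyte and macrophage markers the sum was 8.68 to 19.7 CPM in untreated cells of both lines and 64.5 to 88.2 CPM after ATRA in NB4 and after the combination in both lines, with MRC1 at 0 counts in every group. Of 7 erythroid and megakaryocyte markers 5 were at 0 counts in every group. Their sum was 1.36 to 2.15 CPM in untreated NB4 and 15.6 to 18.8 CPM there with the combination. In HL-60 the same groups had 1.01 to 1.62 and 0.873 to 0.963 CPM. For 6 lymphoid markers these sums were 34.5 to 36.8 and 151 to 169 CPM in NB4. In HL-60 they were 46.0 to 53.9 and 83.6 to 107 CPM. For 6 eosinophil markers they were 171 to 195 and 80.9 to 85.5 CPM in NB4. The HL-60 sums were 18.4 to 20.3 and 6.78 to 9.25 CPM. What part these markers have in the changes below was not tested. In bulk RNA a change in the share of cells that express a gene and a change in RNA per cell cannot be told apart.

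The promoters of CYBB and NCF1 are shown because these genes had the highest levels per kilobase after ATRA and because both windows hold the same pair of motifs. RefSeq (GRCh38.p14) gave promoter windows, from 250 bases before to 50 bases after the annotated start, for 4 of the 7 genes: CYBA, CYBB, CYBC1 and NCF1. The windows below are printed 5′ to 3′ on the strand of the gene, and the capitals mark the core of the site bound by the myeloid factor PU.1, read on the other strand (GAGGAA).
CYBB, chrX:37779809-37780108, plus strand: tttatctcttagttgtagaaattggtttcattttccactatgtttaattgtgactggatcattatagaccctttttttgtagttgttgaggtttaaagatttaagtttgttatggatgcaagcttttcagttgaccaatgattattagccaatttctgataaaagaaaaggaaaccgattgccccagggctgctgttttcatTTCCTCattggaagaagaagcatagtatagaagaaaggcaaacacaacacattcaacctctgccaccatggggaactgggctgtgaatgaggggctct
NCF1, chr7:74773761-74774060, plus strand: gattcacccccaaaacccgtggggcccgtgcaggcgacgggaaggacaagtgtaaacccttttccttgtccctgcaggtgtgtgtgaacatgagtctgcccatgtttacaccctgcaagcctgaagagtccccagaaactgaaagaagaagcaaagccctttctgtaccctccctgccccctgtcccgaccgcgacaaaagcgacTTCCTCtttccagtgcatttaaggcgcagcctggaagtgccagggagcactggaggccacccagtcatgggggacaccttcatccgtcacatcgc

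The PU.1 core lies at -48 in CYBB and at -45 in NCF1, counted from the RefSeq start. It was found on either strand in 27.9% of 35116 RefSeq promoter windows of this length. An interferon regulatory factor core, made of 2 GAAA units with 2 bases of any kind between them, was present at -225 and -86 in CYBB and at -116 in NCF1, and 3.57% of all windows held it. The CCAAT box (CCAAT, 34.6% of windows) occurred at 4 places in CYBB and in none of the other windows. The C/EBP core (TTNNGNAA, 36.8% of windows) was found in CYBA alone, at -219. The half-site of retinoid receptors (AGGTCA, 13.8% of windows) and the TATA box (TATAAA, 11.5% of windows) were in none of the 4 windows, and CYBC1 held none of the 6 motifs. A match to these letters is a description of the sequence and not a bound site.

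NCF1 has 2 near-identical copies on chromosome 7, the pseudogenes NCF1B and NCF1C, so its counts need care. A stretch of the GENCODE v29 transcripts shows how they differ, with capitals on the GT repeat that is 4 letters long in NCF1 and 2 letters long in both copies.
NCF1-201: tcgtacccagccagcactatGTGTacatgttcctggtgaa
NCF1B-201: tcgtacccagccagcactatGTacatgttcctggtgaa
NCF1C-201: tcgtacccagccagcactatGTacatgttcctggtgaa
Of the 1247 windows of 150 bases, the read length, in NCF1-201, 45.4% occur unchanged in a transcript of NCF1B or NCF1C. A read from those windows cannot be assigned to 1 gene by its own sequence, and whether the other read of its pair could place it was not checked. How the counting treated such reads is not given in the sources used here.

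On GRCh38 with GENCODE v29, CYBB lies on chromosome X from 37780011 to 37813461 and CYBA on chromosome 16 from 88643283 to 88651152. CYBC1 lies on chromosome 17 from 82442589 to 82450829 and NCF1 on chromosome 7 from 74773962 to 74789315. NCF4 and RAC2 are both on chromosome 22, from 36860988 to 36878015 and from 37225261 to 37244448, and PRAM1 is on chromosome 19 from 8490056 to 8503112. Exons of CYBC1 overlap those of HEXDC on the other strand. HEXDC had 12225 counts over all 24 libraries against 89163 for CYBC1, and reads of the overlap cannot be told apart because the strand setting of the counting is not given.

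In NB4 the whole set rose with each drug, and in HL-60 most of it did, by less. ATRA in NB4 took the 7 genes together from 421 ± 6.66 to 4501 ± 296 CPM and the combination took them to 6589 ± 334 CPM (SD, n = 3), while ATO alone gave 1156 ± 28.7 CPM. In HL-60 the same sums were 820 ± 27.5 CPM untreated, 2560 ± 14.0 CPM with ATRA, 1108 ± 9.17 CPM with ATO and 2701 ± 66.0 CPM with the combination. Per kilobase of exon, CYBB and NCF1 had the 2 highest mean levels of the 7 genes with ATRA and with the combination in both lines.

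A change was called where edgeR's quasi-likelihood test gave a Benjamini-Hochberg adjusted p below 0.05 over all genes tested. After ATRA in NB4 all 7 genes rose, each by at least 2-fold, in a comparison that called 59.9% of 16370 genes, 31.3% higher and 15.8% at least 2-fold higher. After ATO in NB4 all 7 rose, 4 of them by at least 2-fold, where 40.8% of genes were called, 21.2% higher and 7.05% at least 2-fold higher. With library sizes alone as the scaling, 69.0% of the called genes of that ATO comparison were higher, against 51.9% with the scaling used. After the combination in NB4 all 7 rose by at least 2-fold, where 68.2% of genes were called, 35.4% higher and 20.4% at least 2-fold higher. The 7 genes had a median log2 change of 2.24 with ATRA, 1.29 with ATO and 2.05 with the combination, beside medians of 0.028, 0.020 and 0.050 over all genes tested. The comparisons with untreated cells share the untreated libraries and so are not independent of each other.

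In HL-60 fewer of the changes were large. Of the 7 genes 3 rose by at least 2-fold with ATRA, 1 with ATO and 3 with the combination. Over all genes tested in HL-60 8.76%, 3.36% and 11.7% did, below the NB4 shares of 15.8%, 7.05% and 20.4%. Large rises were thus also less common in HL-60 over all genes. With ATRA 6 of the 7 rose and CYBC1 was not called, where 48.6% of 15895 genes were called and 25.2% were higher. With ATO 6 of 7 rose and CYBC1 was again not called, where 28.7% of genes were called and 16.5% were higher. With the combination 5 rose and 2 (CYBC1 and RAC2) fell, where 60.4% of genes were called, 30.7% higher and 29.7% lower. The median log2 change of the 7 genes was 0.65, 0.29 and 0.27 for the 3 treatments, beside 0.0095, 0.020 and -0.0027 over all genes. The HL-60 ATO count rests partly on 1 library: without untreated replicate 3 it was 4, since CYBA (log2 change 0.21, adjusted p = 0.0513) and RAC2 (0.12, adjusted p = 0.137) were no longer called.

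**Figure D1:**
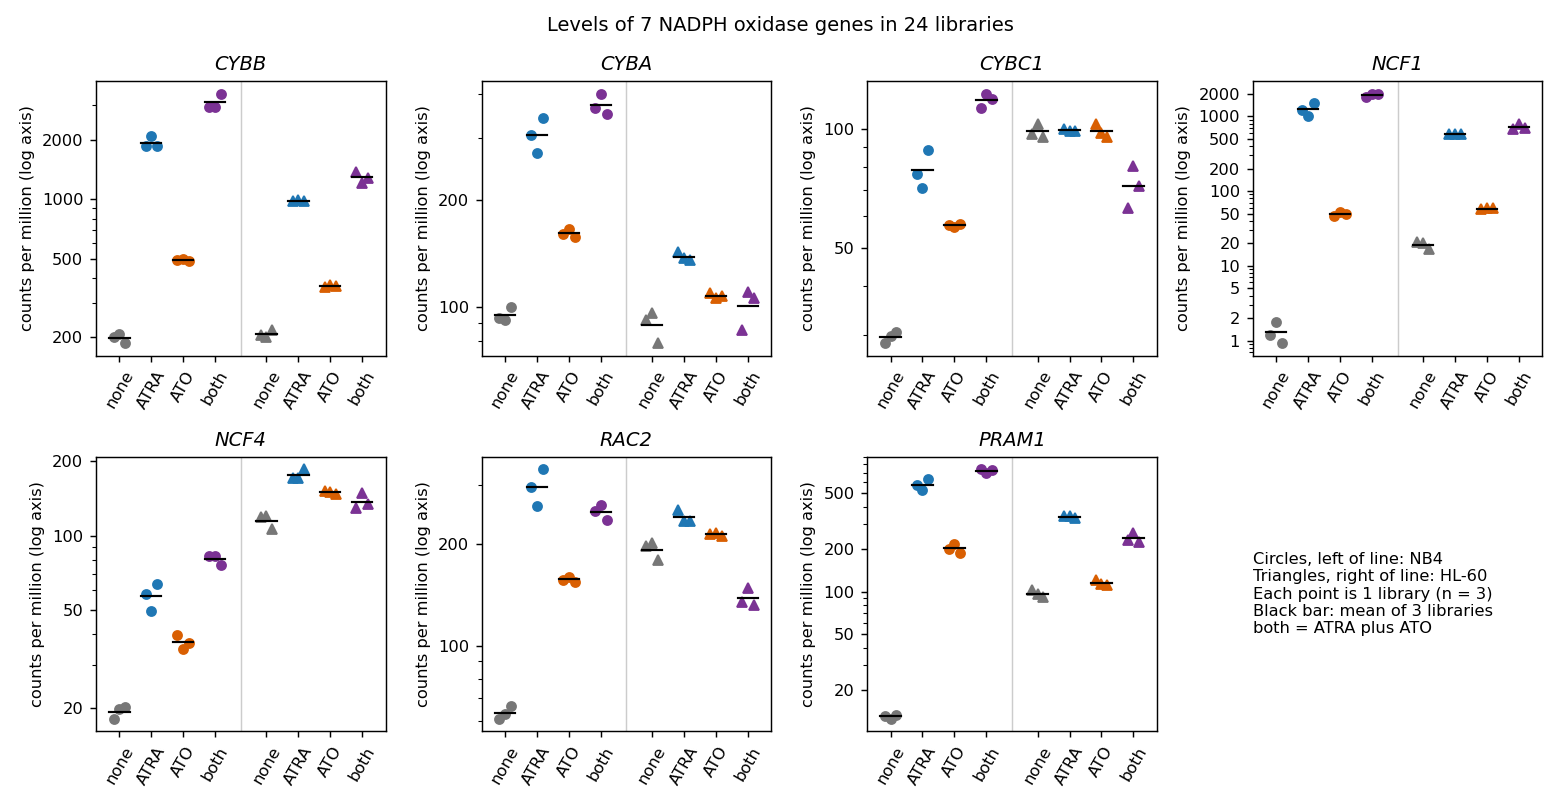
Level of each of the 7 genes in every library in CPM on a log axis, with NB4 as circles left of the grey line, HL-60 as triangles right of it, and a black bar at the mean of 3 libraries. NCF1 went from 0.923 to 1.78 CPM in untreated NB4 to 1811 to 2020 CPM with the combination, while CYBC1 in HL-60 lay between 63.1 and 103 CPM in all 12 libraries.

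CYBB encodes gp91phox, the subunit that carries the flavin and haem groups. In NB4 it stood at 200, 209 and 187 CPM in the untreated libraries of batches 1, 2 and 3, at 1870, 2088 and 1862 CPM with ATRA, at 491, 500 and 485 CPM with ATO and at 2939, 2930 and 3442 CPM with the combination. Every treated NB4 library was above every untreated one, and the 4 groups did not overlap. In HL-60 it stood at 206, 201 and 219 CPM untreated, 982, 992 and 977 CPM with ATRA, 360, 367 and 366 CPM with ATO and 1380, 1218 and 1279 CPM with the combination, again with no overlap between groups. With ATRA the log2 change was 3.31 ± 0.07 (SE) in NB4, a 9.91-fold rise (adjusted p = 3.69e-20), and 2.25 ± 0.05 in HL-60, a 4.74-fold rise (adjusted p = 1e-20). Within batches the ATRA change ran from 3.22 to 3.32 in NB4 and from 2.15 to 2.30 in HL-60. ATO gave 1.30 ± 0.07 in NB4 and 0.82 ± 0.04 in HL-60, and the combination 3.96 ± 0.07 and 2.65 ± 0.05, all called. Groups without overlap were common among all genes, which holds for the genes below too. In NB4 untreated cells did not overlap ATRA for 63.1% of genes tested, ATO for 54.9% and the combination for 72.3%. In HL-60 these shares were 57.1%, 43.1% and 61.7%. The combination did not overlap ATRA for 44.8% in NB4 and 51% in HL-60, nor ATO for 65.1% and 59.8%.

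CYBA encodes p22phox, the partner that holds gp91phox in the membrane and docks p47phox. Its untreated NB4 libraries held 92.7, 91.8 and 100 CPM, its ATRA libraries 305, 271 and 342 CPM, its ATO libraries 160, 166 and 157 CPM and its combination libraries 364, 400 and 350 CPM. None of these groups overlapped, and the lowest combination library was just above the highest with ATRA. In HL-60 it was 91.5, 96.0 and 78.8 CPM untreated, 143, 137 and 135 CPM with ATRA, 109, 106 and 107 CPM with ATO and 85.7, 110 and 106 CPM with the combination, whose first library lay among the untreated ones. CYBA rose by 1.71 ± 0.08 with ATRA, 0.75 ± 0.08 with ATO and 1.96 ± 0.08 with the combination in NB4 on the log2 scale, and by 0.65 ± 0.08 and 0.29 ± 0.08 with ATRA and ATO in HL-60. For the HL-60 combination edgeR gave 0.20 ± 0.08 (adjusted p = 0.0287), higher in 2 of 3 batches. That call was lost without untreated replicate 3 (0.11, adjusted p = 0.205), without combination replicate 2 (0.13, adjusted p = 0.115) and without combination replicate 3 (0.16, adjusted p = 0.126).

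CYBC1 encodes Eros, the chaperone that the gp91phox and p22phox pair needs to accumulate. NB4 held 28.6, 29.9 and 30.5 CPM untreated, 76.8, 70.7 and 88.2 CPM with ATRA, 56.9, 56.5 and 57.5 CPM with ATO and 113, 123 and 119 CPM with the combination, so the 4 groups stood apart, with ATO between untreated and ATRA and the combination highest. HL-60 held 97.3, 103 and 95.4 CPM untreated, 99.7, 99.0 and 98.9 CPM with ATRA, 103, 97.8 and 95.6 CPM with ATO and 63.1, 80.5 and 71.5 CPM with the combination. Only the combination libraries of HL-60 stood apart, below the other 9. In NB4 the log2 change was 1.43 ± 0.08 with ATRA, 0.93 ± 0.08 with ATO and 1.99 ± 0.08 with the combination, all called. In HL-60 it was 0.02 with ATRA (95% interval -0.12 to 0.15, adjusted p = 0.841) and 0.02 with ATO (-0.12 to 0.15, adjusted p = 0.9), and CYBC1 fell by 0.44 with the combination (adjusted p = 4.74e-06).

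NCF1 encodes p47phox, the organiser that is phosphorylated on stimulation and brings the cytosolic subunits to the membrane. It showed the widest range of the 7 genes. In untreated NB4 it had 1.19, 1.78 and 0.923 CPM, from 52, 76 and 45 counts, and with ATRA 1203, 1024 and 1524 CPM, from 49018, 42111 and 66698 counts. ATO gave 46.2, 51.8 and 49.1 CPM and the combination 1811, 2020 and 2003 CPM in NB4, with no overlap among the 4 groups. Untreated HL-60 started higher, at 20.6, 20.3 and 16.9 CPM, and went to 581, 583 and 582 CPM with ATRA, 56.9, 58.6 and 59.2 CPM with ATO and 676, 801 and 689 CPM with the combination. The ATRA change was 9.94 ± 0.17 on the log2 scale in NB4, a 986-fold rise (adjusted p = 1.21e-21) that ranked 39 from the top among 16370 genes, and 4.92 ± 0.07 in HL-60, a 30.4-fold rise (adjusted p = 9.23e-23). Within batches it ran from 9.13 to 10.6 in NB4 and from 4.81 to 5.10 in HL-60, and the NB4 value rests on few untreated counts. ATO raised NCF1 by 5.24 ± 0.16 in NB4 and by 1.61 ± 0.07 in HL-60.

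The copies of NCF1 moved with it. NCF1B went from 0.506 ± 0.273 to 546 ± 98.4 CPM and NCF1C from 0.344 ± 0.159 to 555 ± 114 CPM with ATRA in NB4 (SD, n = 3), and in HL-60 they went from 10.7 ± 1.83 to 228 ± 4.71 and from 8.05 ± 0.09 to 373 ± 8.15 CPM. Of the counts of the 3 genes NCF1 took 52.5% to 53.4% in every NB4 library with ATRA or the combination and 48.6% to 49.8% in the HL-60 libraries with the same treatments. In NB4 with ATO it took 67.0% to 67.7%, above every library with ATRA in either line. The share of NCF1C was 23.4% to 24.7% in NB4 with ATRA or the combination and 31.2% to 34.3% in HL-60, so the split among the copies differed between the lines with no overlap. Counts of the 3 genes are therefore read here as a family whose members cannot be fully separated, and the changes of NCF1 carry that uncertainty.

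**Figure D2:**
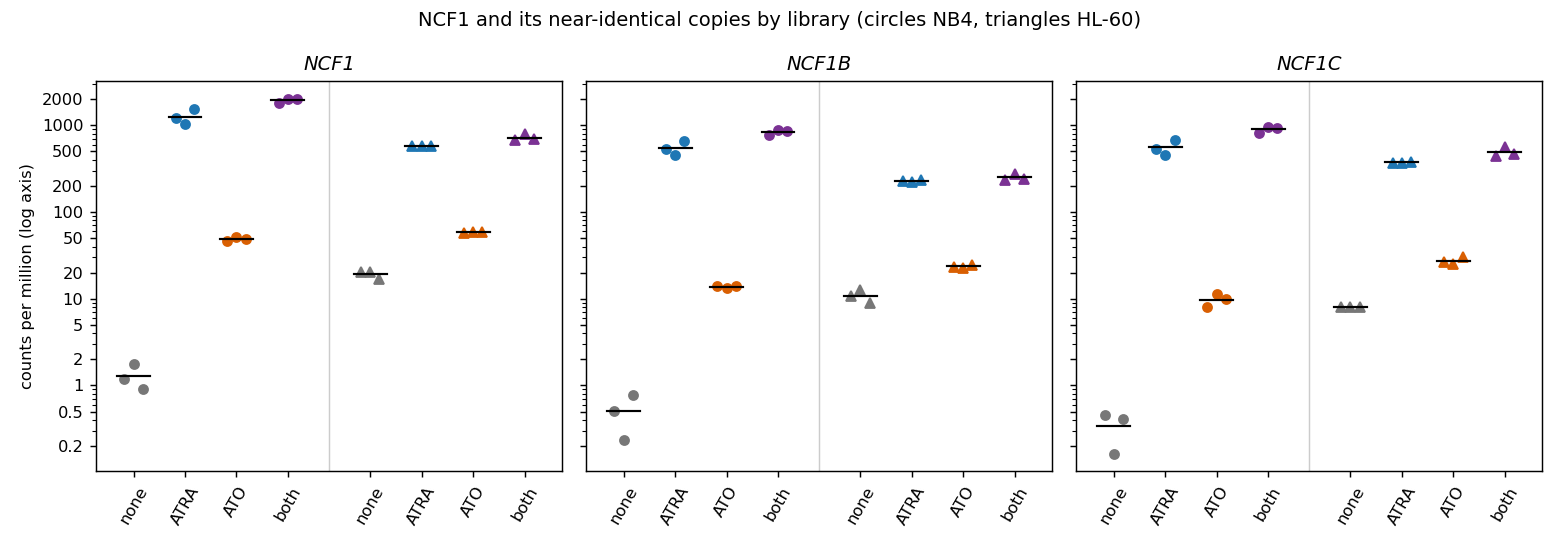
Levels of NCF1, NCF1B and NCF1C in every library in CPM on a shared log axis, NB4 as circles and HL-60 as triangles, with black bars at the mean of 3 libraries. All 3 genes are lowest in untreated NB4 and highest in NB4 with the combination, and NCF1 is above both copies in every treated group.

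NCF4 encodes p40phox, which binds the phagosome lipid phosphatidylinositol 3-phosphate and sustains the burst there. NB4 went from 18.1, 19.8 and 20.2 CPM untreated to 57.8, 49.7 and 63.5 CPM with ATRA, 39.5, 34.7 and 36.6 CPM with ATO and 82.7, 83.0 and 76.2 CPM with the combination, with no overlap of groups. HL-60 started at 119, 120 and 106 CPM and had 172, 171 and 186 CPM with ATRA, 152, 151 and 148 CPM with ATO and 129, 149 and 134 CPM with the combination. Every HL-60 library was therefore above every NB4 library of any treatment. NCF4 rose by 1.58 ± 0.09, 0.91 ± 0.09 and 2.05 ± 0.09 with ATRA, ATO and the combination in NB4 on the log2 scale, and by 0.63 ± 0.06, 0.40 ± 0.06 and 0.27 ± 0.06 in HL-60.

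RAC2 encodes the Rac GTPase of blood cells that completes the active oxidase. In NB4 it had 60.9, 63.0 and 66.5 CPM untreated, 295, 260 and 333 CPM with ATRA, 157, 160 and 155 CPM with ATO and 250, 261 and 235 CPM with the combination, so the combination libraries reached into the range of ATRA alone. In HL-60 it had 197, 201 and 180 CPM untreated, 252, 234 and 234 CPM with ATRA, 215, 216 and 211 CPM with ATO and 135, 148 and 132 CPM with the combination, the last below every other HL-60 library. RAC2 rose by 2.24 ± 0.08 with ATRA and 1.29 ± 0.08 with ATO in NB4 and by 0.33 ± 0.05 with ATRA in HL-60 on the log2 scale. The rise with ATO in HL-60 was 0.16 ± 0.05 (adjusted p = 0.0213) and was no longer called without ATO replicate 1 (0.16, adjusted p = 0.0736) or replicate 2 (0.15, adjusted p = 0.0992). With the combination RAC2 rose by 1.96 ± 0.08 in NB4 and fell by 0.46 in HL-60 (adjusted p = 8.38e-08). RAC1, the Rac of most other cells, moved less: it was 325 ± 8.85 CPM untreated and 241 ± 9.51 CPM with the combination in NB4, and 256 ± 10.2 and 286 ± 6.43 CPM in HL-60.

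PRAM1, the adaptor, had 13.1, 12.5 and 13.4 CPM in untreated NB4, 568, 525 and 626 CPM with ATRA, 201, 217 and 189 CPM with ATO and 739, 697 and 730 CPM with the combination. The 4 NB4 groups did not overlap. In HL-60 it had 103, 95.9 and 91.8 CPM untreated, 344, 344 and 333 CPM with ATRA, 120, 114 and 111 CPM with ATO and 231, 262 and 225 CPM with the combination, which lay between ATRA and ATO. PRAM1 rose 44.7-fold with ATRA (log2 change 5.48 ± 0.08, 5.39 to 5.54 within batches) and 15.4-fold with ATO (3.95 ± 0.08) in NB4, and 3.53-fold (1.82 ± 0.06) and 1.2-fold (0.26 ± 0.06) in HL-60. Its rank from the top in the NB4 ATO comparison was 167 of 16370 genes, and in the HL-60 ATO comparison it was 4027 of 15895.

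**Figure D3:**
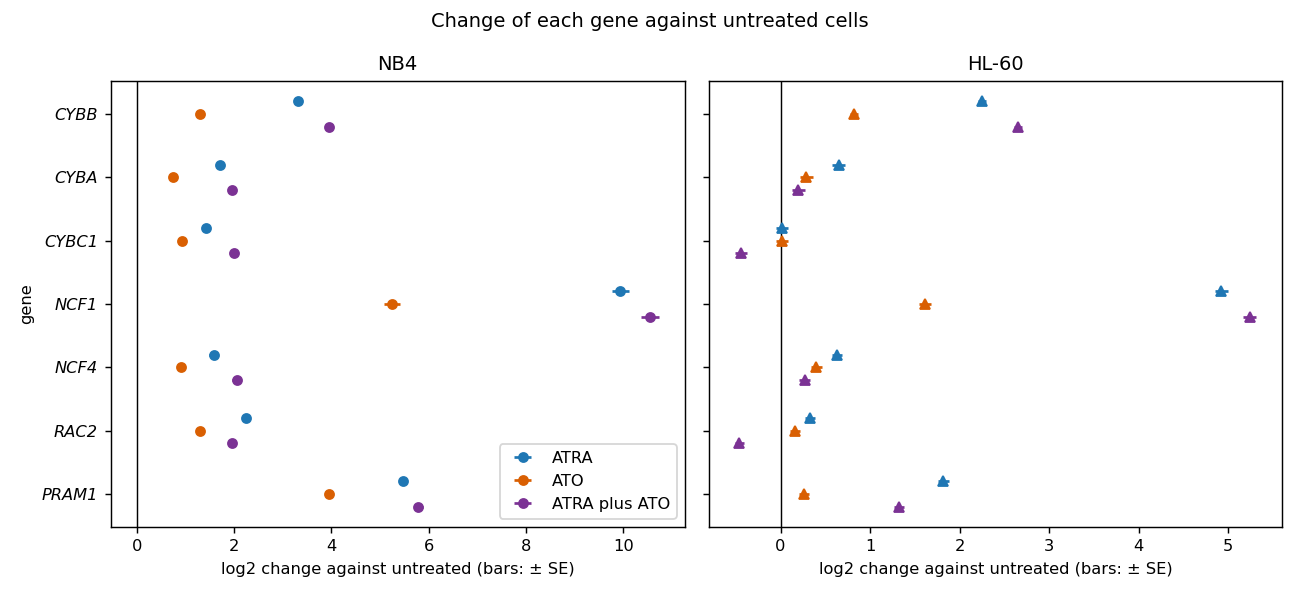
Log2 change against untreated cells from edgeR for each gene, with bars of 1 SE, NB4 on the left and HL-60 on the right with its own narrower axis. In NB4 all points lie right of 0, while in HL-60 the combination points of CYBC1 (-0.44) and RAC2 (-0.46) lie left of it.

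The next question was what ATO added to ATRA. In NB4 6 of the 7 genes were higher with the combination than with ATRA alone and RAC2 was lower, where 16.8% of genes were called higher and 21.2% lower. CYBB was 0.65 ± 0.07 higher on the log2 scale, NCF1 0.61 ± 0.11, CYBC1 0.56 ± 0.07, NCF4 0.47 ± 0.08, PRAM1 0.31 ± 0.07 and CYBA 0.25 ± 0.07. RAC2 was at -0.28 ± 0.07 (adjusted p = 0.00431), but its groups overlapped and it was lower in 2 of 3 batches. Of the 16 comparisons this one had the largest shift in the share of higher calls with another scaling. With library sizes alone the median of all genes shifted by 0.144 on the log2 scale and 68.4% of the called genes were higher, against 44.3% with the scaling used, and RAC2 was at -0.14 (adjusted p = 0.129) while the other 6 genes stayed higher.

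In HL-60 the same contrast divided the genes. CYBB (0.40 ± 0.04) and NCF1 (0.32 ± 0.06) were higher with the combination than with ATRA alone, and the other 5 were lower, where 22.0% of genes were called higher and 21.9% lower. RAC2 fell by 0.79, PRAM1 by 0.50, CYBC1 by 0.46, CYBA by 0.45 and NCF4 by 0.35, each with the same sign in 3 of 3 batches. The 2 groups did not overlap for any of the 7 genes, nor did they for 51% of all genes. So messenger RNA of CYBB and NCF1 was higher, and that of CYBA, CYBC1, NCF4, RAC2 and PRAM1 was lower. Protein was not measured. Of the NCF1 copies, NCF1C was 0.40 ± 0.07 higher and NCF1B was not called (0.15, edgeR adjusted p = 0.0966). The rise of NCF1 therefore cannot be assigned to that gene alone.

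Against ATO alone the combination was higher for all 7 genes in NB4, from 0.67 ± 0.07 for RAC2 to 5.31 ± 0.13 for NCF1, where 28.6% of genes were called higher. In HL-60 it was higher for CYBB (1.83 ± 0.04), NCF1 (3.64 ± 0.07) and PRAM1 (1.06 ± 0.06), where 27.5% of genes were called higher and 27.0% lower, and 39.6% of called genes were higher with library sizes alone against 50.5% with the scaling used. CYBC1 and RAC2 were lower (-0.45 ± 0.07 and -0.63 ± 0.05). CYBA was at -0.09 (95% interval -0.25 to 0.07) and NCF4 at -0.13 (-0.25 to -0.01, adjusted p = 0.066), and neither was called.

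The interaction compares the combination with the sum of the 2 single-drug changes on the log2 scale. It was below 0 for all 7 genes in both lines, where 12.5% of genes in NB4 and 18.1% in HL-60 were called lower. On this scale the combination thus gave less than the sum, which means less than the product of the fold changes. In CPM the gain with the combination was above the sum of the single-drug gains for some genes, as for CYBB in NB4. For others, as for RAC2 in NB4, it was below that sum. In NB4 the interaction was -4.63 ± 0.20 for NCF1, -3.64 ± 0.10 for PRAM1, -1.58 ± 0.11 for RAC2, -0.65 ± 0.09 for CYBB, -0.50 ± 0.105 for CYBA, -0.44 ± 0.12 for NCF4 and -0.36 ± 0.105 for CYBC1. NCF1 and PRAM1 had the largest shortfall on the log2 scale in NB4. Each drug alone also raised these genes most there. Those changes are subtracted in the interaction, so this link is partly built in and is not a result of its own. The NCF1 value also rests on 45 to 76 counts in the untreated NB4 libraries. The CYBC1 value was called at adjusted p = 0.0184 and was no longer called without untreated replicate 1 (adjusted p = 0.0659), ATRA replicate 3 (adjusted p = 0.0585) or combination replicate 1 (adjusted p = 0.0648). In HL-60 the values were closer together, from -0.41 ± 0.06 for CYBB to -1.29 ± 0.09 for NCF1.

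**Figure D4:**
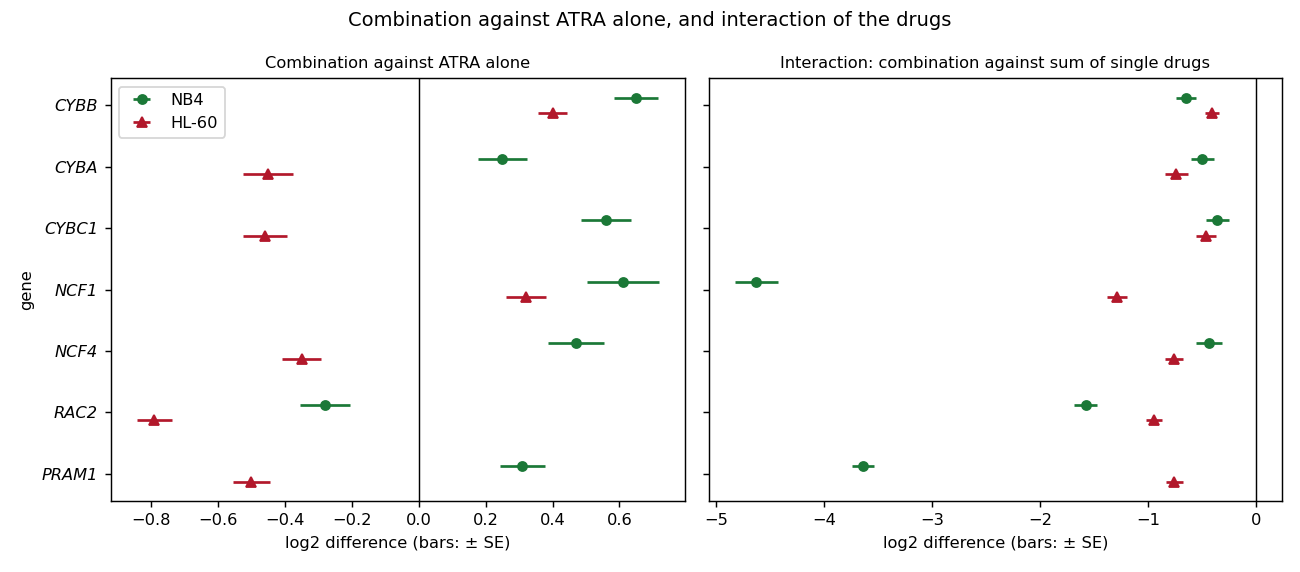
Left, log2 difference between the combination and ATRA alone; right, interaction of the drugs, each from edgeR with bars of 1 SE, NB4 as circles and HL-60 as triangles. On the left only CYBB and NCF1 lie right of 0 in both lines, and on the right every point lies left of 0, down to -4.63 for NCF1 in NB4.

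The lines were then compared directly in a fit of all 24 libraries. In untreated cells NB4 was lower than HL-60 for 5 genes, where 63.2% of 17930 genes were called and 34.0% were lower in NB4. The difference was -3.91 ± 0.16 for NCF1, -2.90 ± 0.07 for PRAM1, -2.57 ± 0.08 for NCF4, -1.73 ± 0.07 for CYBC1 and -1.60 ± 0.07 for RAC2. The membrane core was not called: CYBB was at -0.07 (95% interval -0.19 to 0.04) and CYBA at 0.09 (-0.07 to 0.26), though with library sizes alone CYBA was at 0.25 and was called (adjusted p = 0.00653).

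The response to each drug was larger in NB4 for all 7 genes, tested as the difference between the 2 log2 changes. For ATRA 17.7% of genes were called with the larger change in NB4, for ATO 7.11% and for the combination 24.9%. The ATRA differences ran from 0.94 ± 0.11 for NCF4 to 5.01 ± 0.19 for NCF1, the ATO differences from 0.49 ± 0.11 for CYBA to 3.72 ± 0.10 for PRAM1, and the combination differences from 1.34 ± 0.08 for CYBB to 5.34 ± 0.19 for NCF1. For ATO, 54.2% of the genes called were higher in NB4 with the scaling used and 70.4% with library sizes alone. For 5 of these genes NB4 also started from the lower level.
With ATRA the mean CPM in NB4 over that in HL-60 was 2.21 for CYBA, 2.15 for NCF1, 1.97 for CYBB, 1.68 for PRAM1 and 1.23 for RAC2, and it was 0.792 for CYBC1 and 0.323 for NCF4. With the combination NB4 was the higher line for 6 genes, from 1.65 times for CYBC1 to 3.69 times for CYBA, and NCF4 was still at 0.587 of its HL-60 level.

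Ratios of partner genes changed because the partners did not move by the same factor. They were taken per kilobase of exon, since genes of different length cannot be compared in CPM, and their absolute size depends on the length used. CYBB over CYBA was 1.42 to 1.73 in untreated NB4, 4.13 to 5.84 with ATRA, 2.28 to 2.36 with ATO and 5.56 to 7.48 with the combination. In HL-60 it was 1.59 to 2.11, 5.21 to 5.50, 2.52 to 2.63 and 8.44 to 12.2. CYBB messenger RNA thus rose by a larger factor than that of CYBA in each treated group of both lines. With the longest transcript as the length the mean ratio in untreated NB4 was 0.687 in place of 1.60, so only the direction between groups is read.

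NCF1 over NCF4 moved from 0.0232 to 0.0458 in untreated NB4 to 10.5 to 12.2 with ATRA, and from 0.0809 to 0.0883 to 1.58 to 1.73 in HL-60. RAC2 over RAC1 went from 0.233 to 0.253 in untreated NB4 to 1.28 to 1.55 with ATRA, 0.729 to 0.800 with ATO and 1.22 to 1.31 with the combination. In HL-60 this ratio was 0.894 to 0.958 untreated, 0.996 to 1.11 with ATRA and 1.06 to 1.13 with ATO, and it was 0.575 to 0.620 with the combination, below all other HL-60 libraries. The ratio was thus higher in every treated NB4 library than in any untreated one, and within HL-60 the combination was the only treatment below untreated.

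**Figure D5:**
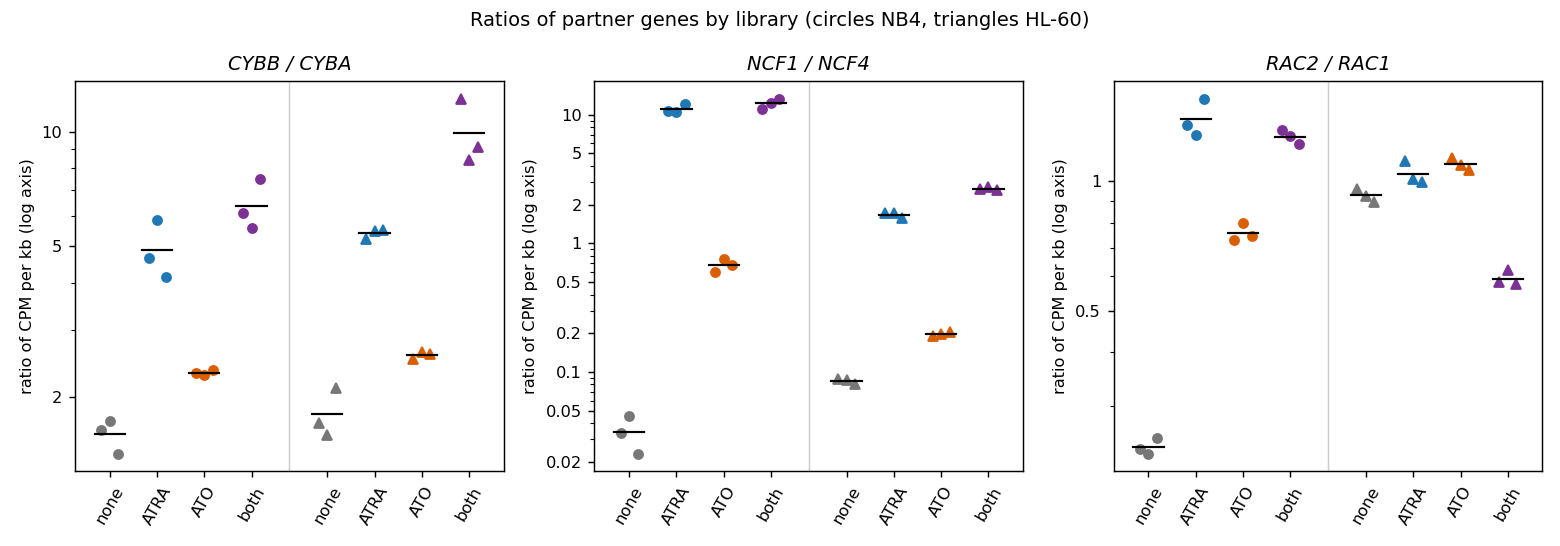
Ratios of partner genes in every library on log axes, from CPM per kilobase of exon, with NB4 as circles, HL-60 as triangles and black bars at the mean of 3 libraries. CYBB over CYBA and NCF1 over NCF4 are lowest in untreated cells of both lines, and RAC2 over RAC1 is lowest in untreated NB4 and, within HL-60, with the combination.

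Other genes around the oxidase were taken from lists chosen with earlier results of these data known. Of all genes tested in NB4, 31.3% rose and 28.6% fell with ATRA, 21.2% and 19.6% with ATO, and 35.4% and 32.8% with the combination. In HL-60 these shares were 25.2% and 23.3%, 16.5% and 12.1%, and 30.7% and 29.7%. Of 24 genes listed around activation of the oxidase (Rac exchange factors and chaperones, kinases, the proton channel) 23 were tested in each line. Not every gene on that list activates the oxidase, so the counts below are of listed genes and not of activation. In NB4 16 rose and 3 fell with ATRA, 14 rose and 4 fell with ATO, and 16 rose and 6 fell with the combination, and the median log2 change with ATRA was 0.88 beside 0.028 over all genes. In HL-60 16 rose and 1 fell with ATRA, 8 rose and 3 fell with ATO, and 10 rose and 9 fell with the combination, with median log2 changes of 0.32, 0.02 and -0.05 for the 3 treatments. The counts for the HL-60 combination were thus nearly even in the 2 directions, as over all genes. PIK3R5 and PIK3CG, subunits of the phosphoinositide 3-kinase that chemoattractant receptors switch on, rose by 5.16 ± 0.13 and 2.01 ± 0.06 with ATRA in NB4 and by 1.65 ± 0.10 and 3.07 ± 0.05 in HL-60. HVCN1, the proton channel that balances the charge the oxidase moves, fell by 2.02 with ATRA in NB4. With ATO in NB4 the protein kinase C gene PRKCZ rose by 2.36 ± 0.17 and the Rac exchange factor VAV3 by 0.89 ± 0.13.

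Of 7 partners and relatives of PRAM1 in adaptor and Src-family kinase signalling, 6 were tested. All 6 rose with ATRA and with the combination in NB4 and 4 rose with ATO, and in HL-60 5 rose with ATRA and 6 with ATO and the combination. Of all genes tested in NB4, 31.3%, 35.4% and 21.2% rose in the same order. In HL-60 25.2% rose with ATRA, 16.5% with ATO and 30.7% with the combination. FGR, a Src-family kinase of myeloid cells, went from 0.455 ± 0.097 to 622 ± 108 CPM with ATRA in NB4 and from 6.26 ± 0.914 to 348 ± 7.32 CPM in HL-60. FYB1, an adaptor related to PRAM1, rose by 2.79 ± 0.08 with ATRA and 1.95 ± 0.08 with ATO in NB4, and SKAP2, which binds such adaptors, rose with ATRA by 2.39 ± 0.08 in NB4 and 0.87 ± 0.05 in HL-60.

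Of 15 genes listed for the control of oxidase promoters, not all of which act at the promoter itself, 8 rose and 4 fell with ATRA in NB4. Of 13 tested in HL-60 8 rose and 4 fell. Of all genes 28.6% fell in NB4, so the 4 that fell there were close to that share. CEBPB, a C/EBP factor of myeloid cells, rose by 4.56 ± 0.10 in NB4 and 3.85 ± 0.11 in HL-60, and CEBPE, the C/EBP factor of granule genes, by 2.16 ± 0.07 and 2.27 ± 0.08. IRF1, an interferon regulatory factor, rose by 3.45 ± 0.08 with ATRA in NB4. SPI1, which encodes PU.1 and was picked for its motif after its values were seen, went from 89.1 ± 4.91 to 297 ± 33.7 CPM with ATRA in NB4 and from 161 ± 10.2 to 244 ± 1.95 CPM in HL-60. SATB1, a chromatin organiser, fell by 1.32 with ATO in NB4.

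Of 10 genes for other NADPH oxidases and their partners, 9 stayed below 1 CPM in every library, the highest of them NOX5 at 0.393 CPM. The exception was NOXA1, the activator of another oxidase, at 0.145 ± 0.056 CPM in untreated NB4 and 1.94 ± 0.088 CPM with ATRA, and at 1.24 ± 0.155 and 2.47 ± 0.399 CPM in HL-60. CYBB was therefore the only catalytic oxidase gene among those looked at with more than 1 CPM.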

How the data were processed

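Poly(A)-selected RNA was sequenced as paired-end reads, per the labels' protocols. The authors deposited gene counts, and the submitters' processing notes name fastp, HISAT2, GRCh38, featureCounts and DESeq2. Not given in the sources used here: tool versions, annotation release, strand setting, treatment of shared reads. Even numbers made up 74.4% of counts of 1 to 9 and 51.5% of counts of 500 or more, so halved counts were tried as an alternative.

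From these counts, genes kept by filterByExpr (16370 in NB4, 15895 in HL-60, 17930 in both) were tested with edgeR 4.0.16 quasi-likelihood tests after TMM scaling, in fits of 12 libraries per line (8 residual degrees of freedom) and of 24 for line differences (16). The biological coefficient of variation was 8.78%, 7.00% and 7.98%. P-values were adjusted by Benjamini-Hochberg within each of 16 comparisons. CPM used TMM-scaled library sizes, and lengths were exon unions of GENCODE v29. The labels' batch number was checked as a pairing: over 18 same-batch pairs per line, residual correlations spanned -0.0812 to 0.0383 (NB4) and -0.00807 to 0.0589 (HL-60), and no batch term was fitted. The fit was tested on simulated data.

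Named genes were the 7 genes, NCF1B and NCF1C, and from each list the called genes of at least 5 CPM with the largest change (3 in NB4 with ATRA, 2 in NB4 with ATO, 2 in HL-60 with ATRA). Named outside this rule were CSF3R, FCGR3B, MRC1, RAC1, SPI1, IRF8, HEXDC, NOXA1, NOX5 and the genes of most similar pattern. The genes, lists and tests were chosen with earlier results of these data known. Alternatives were DESeq2 1.42.0, limma-voom (limma 3.58.1), DESeq2 size factors, library sizes alone, other filters, a replicate block, other sets of libraries and each library left out.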

Additional observations from a re-analysis of the deposited data

Results flagged for a closer look

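All 7 genes had a larger log2 change in NB4 than in HL-60 with each treatment, by a test of the difference itself (edgeR, 24 libraries, adjusted p below 0.05 for each). The sign was the same in 3 of 3 batches matched by number, but the labels do not say that batch numbers correspond between the lines. The values are the log2 change in NB4 minus that in HL-60, and the 3 sets share the untreated libraries. For 5 of the 7 genes untreated NB4 was the lower line. In CPM NCF4 gained more with ATRA in HL-60 (115 to 176) than in NB4 (19.4 to 57.0), and no other of the 7 genes did.

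For the membrane core the differences were 1.05 for CYBB and 1.05 for CYBA with ATRA, 0.51 and 0.49 with ATO, and 1.34 and 1.79 with the combination. The chaperone gene CYBC1, which edgeR did not call in HL-60 with either drug alone, differed by 1.40, 0.94 and 2.46 in the same order. The organiser gene NCF1 differed by 5.01, 3.66 and 5.34, and NCF4 by 0.94, 0.54 and 1.80. RAC2 differed by 1.91, 1.16 and 2.45, and the adaptor gene PRAM1 by 3.65, 3.72 and 4.49. For every gene but PRAM1 the ATO difference was below the ATRA difference. For PRAM1 the ATO and ATRA differences were close, at 3.72 ± 0.10 and 3.65 ± 0.10 (SE). Whether they differ was not tested.

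The NCF1 values rest on 45 to 76 counts in the untreated NB4 libraries and on a gene whose reads are partly shared with its copies.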

How the results depend on the processing

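The 7 genes in 16 comparisons gave 112 results. Over the alternatives that kept all libraries or all groups of a comparison, 1068 of 1078 values stayed on the same side of the threshold, and with 1 library left out 1668 of 1680 did. No called change had the other sign under these alternatives. Of the changes not called, 4 changed sign: with library sizes alone CYBB between the untreated lines (0.08) and CYBC1 with ATRA in HL-60 (-0.03), and with 1 library left out CYBC1 with ATRA (-0.01 to 0.05), CYBC1 with ATO (-0.02 to 0.05) and CYBA with the combination against ATO (-0.16 to 0.03) in HL-60. The replicate block changed none of the 112 calls: NCF1 with ATRA in NB4 was 9.94 on the log2 scale with the block. DESeq2, limma-voom, DESeq2 size factors in edgeR and halved counts also changed none. The changes came with small effects. Library sizes alone lost CYBA for the HL-60 combination against untreated (0.12, adjusted p = 0.19) and called CYBA (-0.19) and NCF4 (-0.23) lower for that combination against ATO. NCF4 in that comparison was also called with looser or stricter filters (-0.14 in both) and without untreated replicate 3 (-0.13) or combination replicate 2 (-0.19). A fit of all 24 libraries lost RAC2 with ATO (0.15) and CYBA with the combination (0.18) in HL-60, and a fit of only the groups compared lost that CYBA call (0.20, adjusted p = 0.0855). Library sizes alone shifted the median of all genes by over 0.1 in 5 comparisons, given here on the log2 scale: NB4 ATO against untreated (0.107), NB4 combination against ATRA (0.144), HL-60 combination against ATO (-0.101), the line difference for the combination (0.136) and the untreated lines (0.15). Shared reads limit NCF1, overlap with HEXDC limits CYBC1, and few counts limit NCF1 in untreated NB4.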

Other observations

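Genes that act on superoxide and hydrogen peroxide, the products of the oxidase, mostly fell in NB4 with ATRA and with the combination, and did not with ATO. Of 12 such genes tested in NB4 with ATRA, 10 fell and 2 rose, where 31.3% of all genes rose and 28.6% fell, and the median log2 change was -0.52 beside 0.028 over all genes. PRDX5, a peroxiredoxin, rose by 1.56 ± 0.08, while PRDX1, another, fell by 1.27 and the eosinophil peroxidase gene EPX by 1.18. With the combination in NB4 11 fell and 1 rose, where 35.4% of all genes rose and 32.8% fell. With ATO in NB4 4 rose and 5 fell, where 21.2% of all genes rose and 19.6% fell, among them PRDX5 (0.82 ± 0.08) and GPX1 (-0.53 ± 0.08), a glutathione peroxidase. In HL-60 5 rose and 3 fell with ATO, where 16.5% of all genes rose and 12.1% fell, and 2 rose and 8 fell with the combination, where 30.7% rose and 29.7% fell. In HL-60 with ATRA 4 rose and 6 fell, where 25.2% of all genes rose and 23.3% fell, and the myeloperoxidase gene MPO, whose enzyme uses the peroxide of the burst, fell by 2.76.

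For each of the 7 genes the most similar patterns were sought over the 8 group means of log2 CPM among 10382 protein-coding genes. These means share libraries, scaling and controls, and a high correlation is easy to reach with 8 points, so the values are descriptions. FGR, the myeloid Src-family kinase gene, was closest to NCF1 (r = 0.996), ahead of VSIR (0.991). PKD2L1 (0.999) and ATOSB (0.997) were closest to CYBB, ORAI3 (0.997) and ARL11 (0.988) to CYBA, and CXCR2 (0.987) and CTBP2 (0.977) to CYBC1. PPP1R12C (0.995) and MED15 (0.993) were closest to NCF4, ARHGAP45 (0.985) and ACSS3 (0.956) to RAC2, and AP2A2 (0.970) and KIAA1755 (0.968) to PRAM1. Over the 24 libraries the closest gene was the same for NCF1, CYBC1, NCF4 and RAC2 and another for CYBB, CYBA and PRAM1. Among the 7 genes the correlation over group means ran from -0.11 for CYBA and NCF4 to 0.96 for NCF1 and PRAM1.

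IRF8, an interferon regulatory factor of monocytes, was singled out after its values were seen. IRF8 had 129 ± 2.27 CPM in untreated HL-60 and 8.31 ± 0.959 CPM there with the combination, against 1.10 ± 0.384 CPM in untreated NB4.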
